A study of Mus musculus with 8 samples.

Results

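The Hox-cluster miRNAs are microRNAs whose hairpin precursors are encoded between or inside the Hox genes, the homeobox genes that give cells their position along the body and limb axes. They were taken from the deposited table by name, as both arms (5p and 3p) of miR-10a, miR-10b, miR-196a, miR-196b and miR-615. This gave 11 of 1966 names, from 6 hairpins in all 4 Hox clusters. Of the 11, 10 had at least 1 count and 8 were tested. miR-196a has 2 hairpins that share 1 mature 5p sequence, so it is listed with 1 name for the 5p arm and 2 names for the 3p arm.

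The counts came from miRNA-seq of cultured mouse articular chondrocytes, which make and maintain joint cartilage. They had been isolated from the femoral head of wild-type animals aged 3 weeks. The cells were cultured for 24 h with vehicle (n = 4 libraries) or with IL-1β at 1 ng/ml (n = 4 libraries), a cytokine that activates NF-κB. The labels do not say whether the replicates were separate isolations, and p-values therefore measure the spread between libraries, which may be technical.

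A miRNA guides a silencing complex to mRNAs, mainly through its seed, bases 2 to 8 counted from the 5′ end. One arm of the hairpin, the guide, is usually retained and the other is degraded. miR-10 and miR-196 lie at matching positions in several Hox clusters, and known targets of both include Hox mRNAs. miR-196 in particular represses Hoxb8. Many adult mesenchymal cells keep the Hox profile of the body region they come from.

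The guides of miR-10 and miR-196 and both arms of miR-615 are shown with the seed in capitals (RefSeq, GRCm38.p6), since the guides within miR-10 and within miR-196 have the same seed.
mmu-miR-10b-5p: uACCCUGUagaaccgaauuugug
mmu-miR-10a-5p: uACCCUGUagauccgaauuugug
mmu-miR-196a-5p: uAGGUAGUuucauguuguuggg
mmu-miR-196b-5p: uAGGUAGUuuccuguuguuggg
mmu-miR-615-3p: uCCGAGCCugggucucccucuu
mmu-miR-615-5p: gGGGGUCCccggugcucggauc

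miR-10b-5p and miR-10a-5p differed by 1 of 23 bases, A12U, in which the base of miR-10b-5p comes first and positions are counted from the 5′ end. miR-196a-5p and miR-196b-5p also differed by 1 base, A12C, with the base of miR-196a-5p first. Both substitutions were at position 12, outside the seed. The arms of miR-615 shared no seed with the other members. All 11 names matched a RefSeq sequence, each 22 or 23 nt long, so that CPM, the counts of a miRNA relative to its library total, could be compared between members without a correction for length. Counts of different miRNAs are still not proportional to their molar amounts, because ligation favors some sequences over others.

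The hairpins other than Mir615, whose precursor sequence was missing from the reference used, are shown with both mature arms in capitals. The arms of each differed widely in abundance, and the 3p arms separate the 2 loci of miR-196a.
Mir10b: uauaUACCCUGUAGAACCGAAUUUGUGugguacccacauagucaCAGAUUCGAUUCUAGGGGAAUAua
Mir10a: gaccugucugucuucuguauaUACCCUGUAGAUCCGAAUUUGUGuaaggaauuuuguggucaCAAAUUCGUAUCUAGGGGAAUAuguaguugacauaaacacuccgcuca
Mir196a-1: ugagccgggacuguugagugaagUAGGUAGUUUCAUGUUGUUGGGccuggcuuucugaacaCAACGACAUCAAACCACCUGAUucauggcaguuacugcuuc
Mir196a-2: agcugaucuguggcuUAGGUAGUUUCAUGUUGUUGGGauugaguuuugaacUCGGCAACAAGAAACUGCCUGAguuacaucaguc
Mir196b: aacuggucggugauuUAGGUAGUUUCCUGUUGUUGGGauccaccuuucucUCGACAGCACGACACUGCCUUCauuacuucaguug

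In the Hoxd cluster, Mir10b lay at chr2:74726070-74726137 on the plus strand (GRCm38), in introns of the annotated transcripts of Hoxd4 and Hoxd3. In the Hoxb cluster, Mir10a lay at chr11:96317165-96317274 on the plus strand, outside other annotated genes and 993 bp from Hoxb4. Mir196a-1 lay in the same cluster at chr11:96265164-96265265 on the plus strand, outside other annotated genes between Hoxb13 and Hoxb9. The Hoxc cluster held a pair of hairpins on the plus strand. Mir196a-2 lay at chr15:102973350-102973434, between Hoxc10 and Hoxc9 and in an intron of a long annotated transcript of Hoxc5, and Mir615 lay at chr15:103014910-103015001 in an intron of Hoxc5. In the Hoxa cluster, Mir196b lay at chr6:52230081-52230165 on the minus strand, over an exon of annotated Hoxa9 transcripts and 1032 bp from Hoxa10.

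Library totals ranged from 616475 to 1568367 counts. One library, IL-1β replicate 4, stood apart: across 195 miRNAs averaging 50 counts or more, its log2 deviations from the average of the remaining 3 IL-1β libraries had an SD of 0.40, against 0.15 to 0.23 for the other 7 libraries. Group differences that rest on it are given with and without it. The 4 arms of miR-140 and miR-455, miRNAs of cartilage, took 15.6% to 16.8% of counts in the vehicle libraries, 14.7% to 15.3% in IL-1β replicates 1 to 3 and 12.4% in IL-1β replicate 4. Each IL-1β library was thus below each vehicle library, and the part of this in the results was not tested. Of 6 haematopoietic markers 3 were detected, with 0.00452% to 0.00638% of counts per vehicle library and 0.00260% to 0.00471% per IL-1β library, and miR-142a-3p, miR-223-3p and miR-451a were at 0. Of 2 endothelial, 6 epithelial and 3 neural markers, 1, 4 and 1 were detected, with 8, 11 and 3 counts in all, and the 4 muscle markers were at 0.

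The Hox-cluster miRNAs took 1.27% of all counts, and miR-10b-5p alone held 78.9% of the members' counts. Their share of the library was 1.10%, 1.22%, 1.09% and 1.17% in vehicle replicates 1 to 4. IL-1β replicates 1 to 4 gave 1.11%, 1.20%, 1.32% and 2.09%. The counting error of each share was at most 0.0303 percentage points (95% Wilson interval, mean of the distances to its lower and upper limits). Like all intervals from counts here, it covers counting error only. The first 3 IL-1β libraries lay within or just above the range of the vehicle libraries, and the fourth far above it. The share averaged 1.14% ± 0.0607 for vehicle against 1.43% ± 0.447 for IL-1β (SD, n = 4), and 1.21% ± 0.102 for IL-1β when replicate 4 was left out (SD, n = 3). This sum over the members was not tested. In bulk samples such as these, fewer cells of a type and less RNA per cell cannot be told apart.

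The families differed in that library. The miR-10 members took 0.935%, 1.02%, 1.16% and 1.91% of counts in IL-1β replicates 1 to 4, whereas the miR-196 and miR-615 members together took 0.179%, 0.183%, 0.157% and 0.176%. Thus the excess of IL-1β replicate 4 was seen in miR-10 and not in the rest of the group. With vehicle, the miR-196 and miR-615 members together took 0.171% to 0.191%, a range that overlapped that with IL-1β.

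Among the 8 members tested, 0 were called higher and 0 lower with IL-1β (quasi-likelihood fit of edgeR, adjusted p by Benjamini-Hochberg under 0.05 across 564 miRNAs, log2 fold change beyond 0.3 in size), and 0 had an unadjusted p under 0.05. DESeq2 called 0 of them as well. Over all 564 tested miRNAs 1.95% were called, with 1.42% higher and 0.532% lower, and 11.2% had an unadjusted p under 0.05. The groups of 4 libraries overlapped for each of the 8 members, while 7.62% of all tested miRNAs had groups that did not overlap. The log2 fold change was above 0 for 4 members and below 0 for 4, against 50.5% above 0 over all tested miRNAs. The members' median log2 fold change was -0.02 and that of all tested miRNAs was 0.01. With 8 members and 1.95% called over the table, a count of 0 is near the background.

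**Figure D1:**
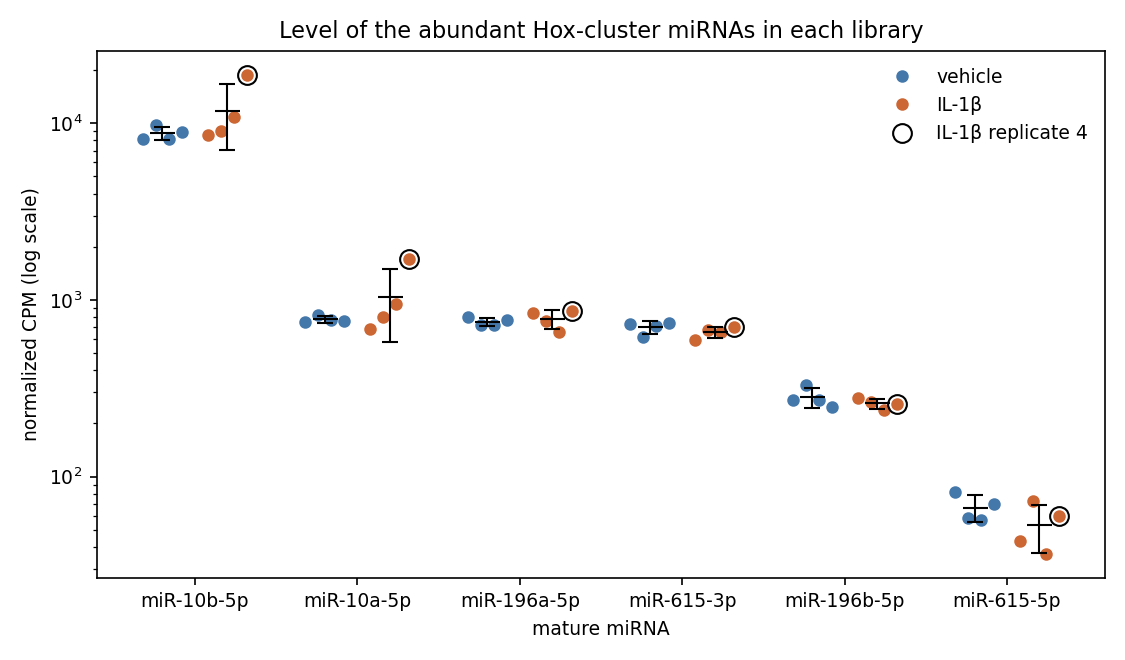
Abundance of the 6 members with more than 10 normalized CPM, in normalized CPM on a log scale. Each point is a library, blue for vehicle and orange for IL-1β, the horizontal marks and bars are the mean and SD of 4 libraries, and the circled points are IL-1β replicate 4, which is far above the others for miR-10b-5p (18813) and miR-10a-5p (1712) and within or near their range for the other 4.

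miR-10b-5p, the guide from the Hoxd cluster, was the most abundant member and the 18th of the 564 tested miRNAs by mean level. Its level was 8166, 9749, 8172 and 8954 normalized CPM in vehicle replicates 1 to 4, that is, CPM with each library total multiplied by its TMM normalization factor. With IL-1β the values of replicates 1 to 4 were 8536, 9007, 10837 and 18813 normalized CPM. IL-1β replicates 1 and 2 lay within the vehicle range, replicate 3 above it, and replicate 4 at 1.99 times the mean of the other 3. Vehicle libraries averaged 8760 ± 756 and IL-1β libraries 11798 ± 4781 (SD, n = 4), and the fitted log2 fold change was 0.43 (SE 0.269, 95% interval -0.22 to 1.07, edgeR adjusted p = 0.687). Without IL-1β replicate 4 the log2 fold change was 0.11 (SE 0.0710, edgeR adjusted p = 0.549).

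miR-10a-5p, the guide from the Hoxb cluster with the same seed, followed the same pattern at a lower level. It was at 751, 821, 773 and 755 normalized CPM in vehicle replicates 1 to 4, a narrow range. After IL-1β, replicates 1 to 4 held 685, 804, 947 and 1712 normalized CPM, so that these libraries lay on both sides of the vehicle range and replicate 4 was at 2.11 times the mean of the other 3. Vehicle libraries averaged 775 ± 32.3 and IL-1β libraries 1037 ± 463 (SD, n = 4), and the fitted log2 fold change was 0.42 (SE 0.291, 95% interval -0.28 to 1.12, edgeR adjusted p = 0.742). Without IL-1β replicate 4 the log2 fold change was 0.07 (SE 0.0826, edgeR adjusted p = 0.875).

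Because the pair shares a library, its ratio does not depend on how libraries are scaled. miR-10a-5p made up 8.42%, 7.77%, 8.64% and 7.78% of the pair's counts in vehicle replicates 1 to 4. For IL-1β, replicates 1 to 4 stood at 7.43%, 8.20%, 8.04% and 8.34%. The value of IL-1β replicate 4 was inside the range of the vehicle libraries, although both miRNAs were highest there. The SD was 0.444 for vehicle and 0.402 for IL-1β around means that differed by -0.154 percentage points, IL-1β minus vehicle (n = 4). The two-sided exact permutation p = 0.629, adjusted over 6 comparisons of shares 1.0. The counting error of a library, as the mean distance to the limits of its interval, was at most 0.677 percentage points. As the sequences differ by 1 base, and how reads that match both within an error were counted was not stated, the split between miR-10a-5p and miR-10b-5p is uncertain.

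**Figure D2:**
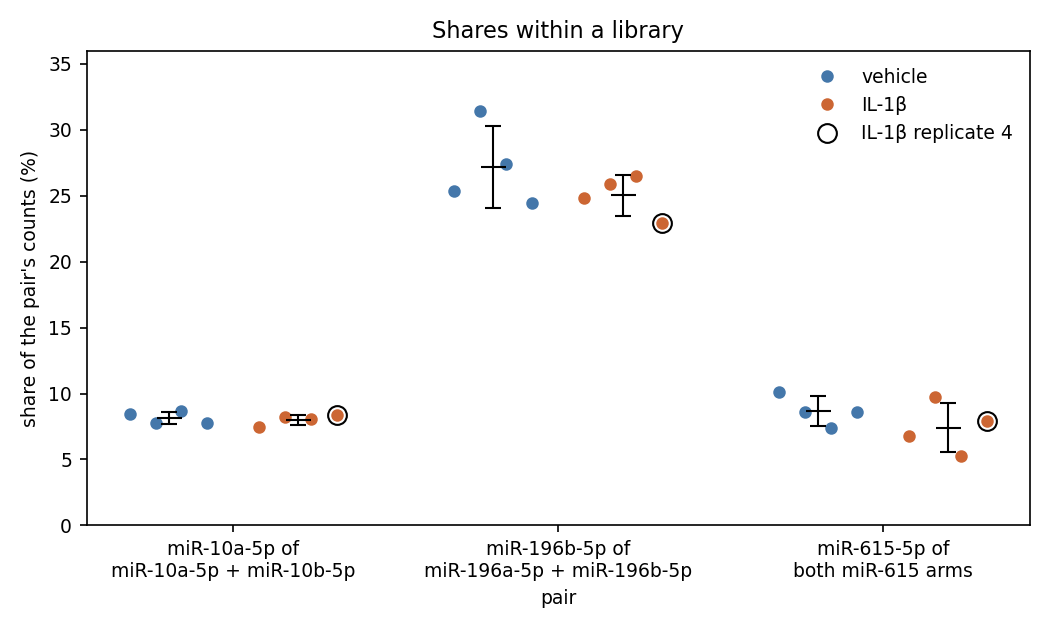
Share of counts within a library, in percent, for the near-identical guides of miR-10 and of miR-196 and for the arms of miR-615. Points are libraries (blue, vehicle; orange, IL-1β; circled, IL-1β replicate 4), and marks and bars are the mean and SD of 4 libraries; miR-10a-5p kept between 7.43% and 8.64% of its pair in all 8.

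The opposite arms of the miR-10 hairpins were close to the floor. miR-10b-3p had 0 to 4 counts per library and 17 in all, against 79588 for miR-10b-5p, and its log2 fold change of 0.60 had a 95% interval from -1.09 to 2.28 (edgeR adjusted p = 0.825). Without IL-1β replicate 3 this value was 0.0826, and without vehicle replicate 4 it was 1.03. miR-10a-3p had 4 counts in all and was not tested. In a single library 1 count was worth 0.638 to 1.62 CPM, and a count of 0 allows up to 1.91 to 4.87 CPM, so that small differences between the groups in these arms were not detectable at this depth. IL-1β replicate 4, with the highest level of both guides, had 0 counts of either opposite arm.

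miR-196a-5p, the guide from Mir196a-1 in the Hoxb cluster and Mir196a-2 in the Hoxc cluster, was at 801, 723, 717 and 766 normalized CPM in vehicle replicates 1 to 4. IL-1β replicates 1 to 4 gave 843, 755, 656 and 866 normalized CPM. The IL-1β libraries had the lowest and the highest values, and the vehicle libraries lay between them. Vehicle libraries averaged 752 ± 39.3 and IL-1β libraries 780.1 ± 95.5 (SD, n = 4), and the fitted log2 fold change was 0.05 (SE 0.0932, 95% interval -0.14 to 0.25, edgeR adjusted p = 0.871). With a library left out it ran from 0.00509, without IL-1β replicate 4, to 0.112, without IL-1β replicate 3, with edgeR adjusted p of 0.976 and 0.714. The upper bound is below the 0.3 that was asked of a call. In IL-1β replicate 4 it was at 1.15 times the mean of the other 3 IL-1β libraries.

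Reads of miR-196a-5p cannot be assigned to one of its loci, since the mature sequences are identical. The table lists its length as 22 nt, that of 1 locus. Of the 53 names with several loci in RefSeq, 31 are listed at 30 nt or less and 22 with a summed length. The 3p arms, shown in capitals in the hairpins, do differ. miR-196a-2-3p, from the Hoxc cluster, had 0 to 7 counts per library and 19 in all, while miR-196a-1-3p, from the Hoxb cluster, had 0 counts in the 8 libraries together, which allows a share of up to 3.77e-05% of all counts. Both were at or near the floor, and the log2 fold change of miR-196a-2-3p, -0.22, had a 95% interval from -1.77 to 1.33 (edgeR adjusted p = 0.972). The sign of this value was opposite to that of the difference between the group means, 2.22 ± 1.94 normalized CPM with vehicle against 2.27 ± 0.942 with IL-1β (SD, n = 4), and it counts among the 4 members below 0.

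miR-196b-5p, the guide from the Hoxa cluster, was at 273, 331, 271 and 248 normalized CPM in vehicle replicates 1 to 4. With IL-1β the values of replicates 1 to 4 were 278, 264, 237 and 258 normalized CPM. Vehicle replicate 2 was the highest and IL-1β replicate 3 the lowest, and the groups overlapped. Vehicle libraries averaged 281 ± 35.5 and IL-1β libraries 259 ± 17.3 (SD, n = 4), and the fitted log2 fold change was -0.12 (SE 0.105, 95% interval -0.34 to 0.10, edgeR adjusted p = 0.753). Without vehicle replicate 2 the log2 fold change was -0.03, and without vehicle replicate 4 it was -0.20. Its opposite arm, miR-196b-3p, had 2 counts in all and was not tested.

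miR-196b-5p took 25.4%, 31.4%, 27.4% and 24.4% of the counts of both miR-196 guides in vehicle replicates 1 to 4, and 24.8%, 25.9%, 26.5% and 23.0% in IL-1β replicates 1 to 4. Vehicle averaged 27.2% ± 3.10 and IL-1β 25.0% ± 1.55 (SD, n = 4), a difference of -2.12 percentage points that was less than the SD of the vehicle group. Without vehicle replicate 2 the difference was -0.703 percentage points, and with any other library left out it was between -3.03 and -1.42, an alternative chosen after seeing the data. The counting error of a library, as the mean distance to the limits of its interval, reached 3.49 percentage points, of the same size as the spread. This share was computed after the levels were seen and was not tested.

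miR-615, encoded in an intron of Hoxc5, differed from the others in that its 3p arm was the abundant one. miR-615-3p was at 726, 619, 712 and 745 normalized CPM in vehicle replicates 1 to 4. After IL-1β, replicates 1 to 4 held 595, 674, 658 and 698 normalized CPM, and 3 vehicle libraries were above each of these while vehicle replicate 2 was above only 1 of them. Vehicle libraries averaged 700.4 ± 56.1 and IL-1β libraries 656 ± 44.0 (SD, n = 4), and the fitted log2 fold change was -0.09 (SE 0.0894, 95% interval -0.27 to 0.09, edgeR adjusted p = 0.757). It was -0.147 without vehicle replicate 2 and -0.0477 without IL-1β replicate 1 (edgeR adjusted p = 0.668 and 0.915), and -0.11 without IL-1β replicate 4.

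miR-615-5p was at 81.6, 58.1, 56.9 and 70.1 normalized CPM in vehicle replicates 1 to 4. For IL-1β, replicates 1 to 4 stood at 43.2, 72.5, 36.5 and 60.2 normalized CPM, from 25 to 86 counts. IL-1β replicates 1 and 3 were below the vehicle range and replicates 2 and 4 inside it. Vehicle libraries averaged 66.7 ± 11.6 and IL-1β libraries 53.1 ± 16.3 (SD, n = 4), and the fitted log2 fold change was -0.25 (SE 0.189, 95% interval -0.64 to 0.14, edgeR adjusted p = 0.744). Without IL-1β replicate 2 the log2 fold change was -0.50 (edgeR adjusted p = 0.307), and without IL-1β replicate 3 it was -0.13 (edgeR adjusted p = 0.856). Without vehicle replicate 1 it was -0.14.

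The 5p share of miR-615 was 10.1%, 8.58%, 7.39% and 8.60% in vehicle replicates 1 to 4. IL-1β replicates 1 to 4 gave 6.77%, 9.71%, 5.26% and 7.93%. The lowest share, in IL-1β replicate 3, had a Wilson 95% interval from 3.59% to 7.65%, and the highest, in vehicle replicate 1, one from 8.16% to 12.4%. Vehicle averaged 8.67% ± 1.11 and IL-1β 7.42% ± 1.88 (SD, n = 4; two-sided exact permutation p = 0.314, adjusted over 6 comparisons 1.0). The difference, IL-1β minus vehicle, was -1.25 percentage points, and it was -2.02 without IL-1β replicate 2, -0.775 without vehicle replicate 1 and -0.535 without IL-1β replicate 3. In contrast, the 5p arm took 99.8% to 100% of the counts of miR-10a, 99.9% to 100% of those of miR-10b, 99.4% to 100% of those of miR-196a, both loci together, and 99.6% to 100% of those of miR-196b. The exact permutation p of these 5p shares was 1.0 for miR-10a, 0.914 for miR-10b, 1.0 for miR-196a and 0.429 for miR-196b (two-sided, each adjusted over 6 comparisons 1.0). Each of these 4 shares rested on 2 to 19 counts of the opposite arm.

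**Figure D3:**
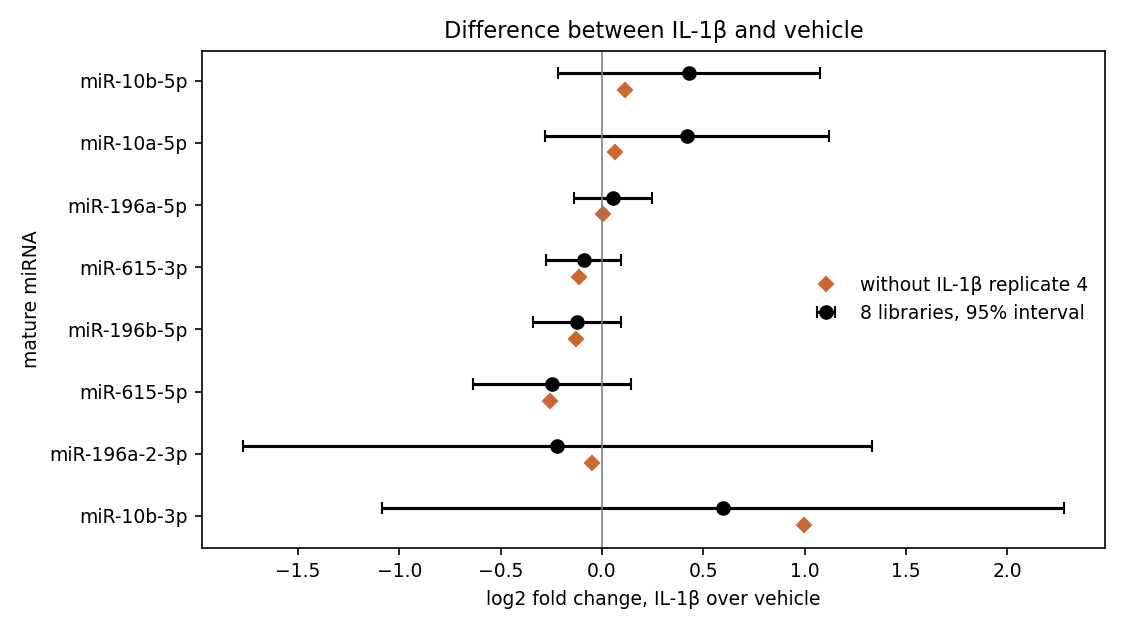
Log2 fold change of IL-1β over vehicle for the 8 tested members, 1 to a line. Black points and bars are the edgeR estimate and 95% interval from 8 libraries, all of which include 0, and orange diamonds are the estimates without IL-1β replicate 4, at 0.11 for miR-10b-5p and 0.07 for miR-10a-5p.

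miR-10b-5p exceeded miR-10a-5p in 8 of 8 libraries, by 10.6 to 12.5 times on counts. miR-10a-5p exceeded miR-196a-5p in 5 of 8 libraries. Their ratio of counts ran from 0.812 to 1.98, the highest in IL-1β replicate 4, and their order was not tested. miR-196a-5p exceeded miR-615-3p in 7 of 8 libraries, by 1.13 times on average. miR-615-3p was above miR-196b-5p, and miR-196b-5p above miR-615-5p, in 8 of 8. miR-615-5p exceeded miR-10b-3p in 8 of 8, and the minor arms miR-10b-3p and miR-196a-2-3p could not be ordered, with the first higher in 3 of 8.

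Within libraries, the ratio of miR-10b-5p to miR-196a-5p counts ran from 10.2 to 13.5 with vehicle and from 10.1 to 21.7 with IL-1β. It was 10.1, 11.9, 16.5 and 21.7 in IL-1β replicates 1 to 4, values in which the scaling between libraries cancels. The same ratio to miR-615-3p was 14.3, 13.4, 16.5 and 26.9 in these libraries, against 11.2 to 15.8 with vehicle. IL-1β replicate 4 was highest in both ratios.

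The deviations of the members in IL-1β replicate 4 were ranked among the same 195 miRNAs. In IL-1β replicate 4, miR-10a-5p lay 1.09 above the mean of the other 3 IL-1β libraries on the log2 scale and miR-10b-5p 1.00 above it, the third and the fourth highest deviations of the 195. miR-196a-5p was at 0.21, miR-615-3p at 0.12, miR-196b-5p at -0.00478 and miR-615-5p at 0.30, with ranks of 57, 80, 110 and 39. In all, 15 of the 195 miRNAs deviated upward by over 0.5 in this library. The total of this library, 856154 counts, was within the range of the others. Its TMM factor, 0.932, against 0.985 to 1.04 in the others, raised its normalized CPM by the same factor for each miRNA. What sets this library apart was not tested.

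**Figure D4:**
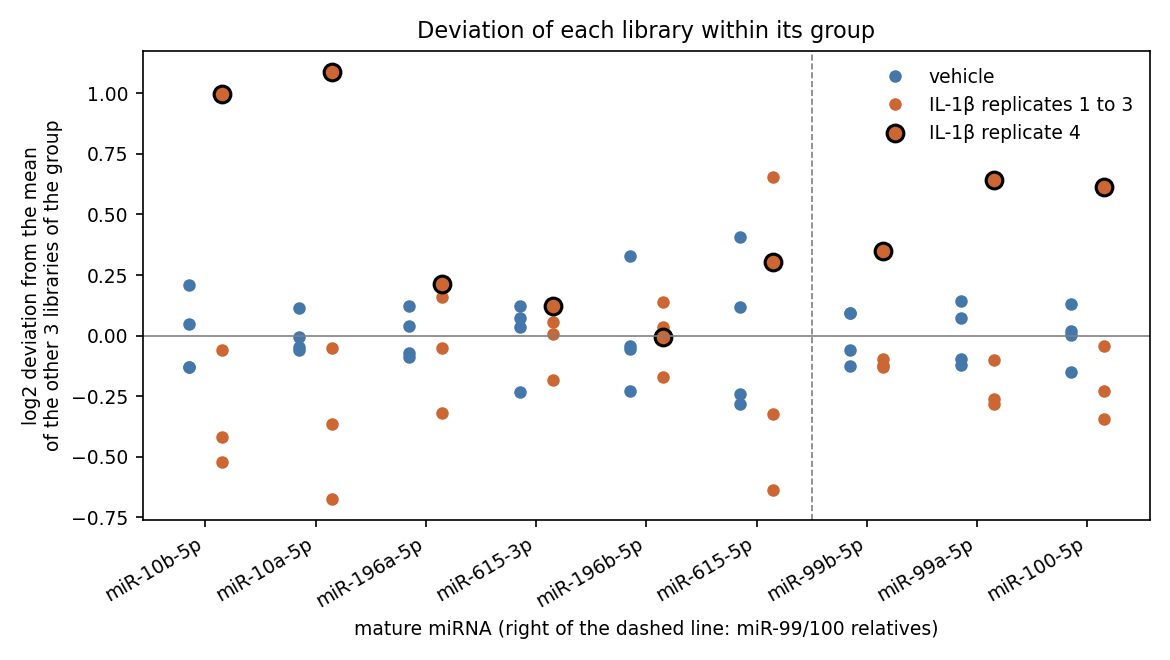
Difference on the log2 scale between a library and the average of the remaining 3 of its group, for the 6 abundant members and, to the right of the dashed line, 3 relatives of miR-10. Blue points are vehicle libraries, orange points IL-1β libraries and outlined points IL-1β replicate 4, which is at 1.00 and 1.09 for the miR-10 guides, at -0.00478 to 0.30 for miR-196 and miR-615, and at 0.35 to 0.64 for the relatives.

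Because miR-99 and miR-100 belong to the same superfamily as miR-10, their arms were examined as a list. Their guides are shown with the seed in capitals.
mmu-miR-99a-5p: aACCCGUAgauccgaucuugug
mmu-miR-99b-5p: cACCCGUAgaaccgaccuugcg
mmu-miR-100-5p: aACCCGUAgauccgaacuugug

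miR-10a-5p shared a run of 11 bases with miR-100-5p, and miR-10b-5p one of 10 bases with miR-99b-5p, and both runs start at position 7 of miR-10. Of 6 arms in the list 5 were tested, and 0 were called in either direction, with a median log2 fold change of 0.05. The value farthest from 0 was that of the minor arm miR-99a-3p, at -0.76 (SE 0.611, edgeR adjusted p = 0.753) from means of 4.73 ± 2.89 normalized CPM for vehicle and 2.95 ± 2.03 for IL-1β (SD, n = 4), and it was -0.28 without vehicle replicate 2 and -0.38 without IL-1β replicate 4. miR-99b-3p was at 0.05 (edgeR adjusted p = 0.970). For the 3 guides the log2 fold changes were 0.12 (miR-99a-5p), 0.01 (miR-99b-5p) and 0.12 (miR-100-5p), with edgeR adjusted p from 0.757 to 0.992, and without IL-1β replicate 4 they were -0.07, -0.08 and -0.05. miR-99a-5p was at 935 to 1098 normalized CPM in the other 7 libraries and at 1513 in IL-1β replicate 4. miR-100-5p was at 461 to 551 in the other 7 and at 758 in that library. These 3 guides were also highest in IL-1β replicate 4, by less than miR-10.

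By the rule that ranked miRNAs by the likeness of their profile over the 8 libraries to that of miR-10b-5p (the root mean square difference of centered log2 levels, among 194 others), the closest were miR-10a-5p at 0.0732, miR-125b-5p at 0.181 and miR-100-5p at 0.185. miR-10a-5p was thus less than 0.1 away, and the next was more than 0.15 away. miR-196a-5p was at 0.353 (rank 68), miR-615-3p at 0.384 (rank 96) and miR-196b-5p at 0.422 (rank 122). miR-125b-5p, which has 2 loci, deviated by 0.58 in IL-1β replicate 4, and miR-100-5p by 0.61. The ranking used all 8 libraries, IL-1β replicate 4 included, and was not computed without it.

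The seed of miR-196 is also found in let-7 miRNAs, 1 base further from the 5′ end. It occurred from position 3 in 8 of 11 sequences of let-7 and miR-98. All 11 were tested and 0 were called in either direction, with 1 at an unadjusted p under 0.05, a median log2 fold change of 0.03 and a range from -0.10 to 0.20. The values of miR-196a-5p (0.05) and miR-196b-5p (-0.12) lay within and just below this range.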

How the data were processed

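The authors trimmed reads with cutadapt, aligned them to mm10 with STAR and counted them with featureCounts. The methods name GENCODE vM20, and the submitters' processing notes give STAR 2.4.2a, which differs from the version in the methods. The deposited values are integers per mature miRNA in 8 libraries and were taken here as raw counts. How reads with several matches were counted, and whether strand was used, are not given in the sources used here. A correction with RUVseq was described, but all deposited values were integers, with totals that differ between libraries, and were treated as uncorrected.

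Groups came from the sample titles. miRNAs over 1 CPM in at least 4 of 8 libraries entered a robust quasi-likelihood fit in edgeR 4.0.16 (R 4.3.3; TMM, group as the only term), and were called at a Benjamini-Hochberg adjusted p under 0.05 and an absolute log2 fold change over 0.3. SE was the size of the log2 fold change divided by the square root of F. Shares within a library were compared with exact permutation tests (scipy 1.17.1). Of 4 against 4 libraries the smallest two-sided p is 0.0286. The members, the lists and the tests were chosen with earlier results of these data known. Named were all members, the miR-99/100 arms, and the 3 miRNAs most like miR-10b-5p, with let-7 as a list. Hairpin positions and sequences are from RefSeq (GRCm38.p6) and gene models from GENCODE vM21, the same build as mm10. The test was checked on 5 sets of simulated counts, in which 200 of 564 miRNAs were changed and no library stood apart. It called 41.6% of 1.5-fold and 55.6% of 2-fold changes, or 93.5% and 100% at a mean of at least 50 counts. Of the calls, 4.21% were false.

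Alternatives were no filter, size factors from median ratios, scaling by library totals, a mean of at least 10 counts, DESeq2 1.42.0, a replicate block, 1 surrogate variable (sva 3.50.0), an absolute log2 fold change over 1, log2 ratios in place of percentages, and each library left out in turn.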

Additional observations from a re-analysis of the deposited data

Results flagged for a closer look

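In 3 of 40 groups of 4 libraries examined (levels and shares of the members and of the miR-99/100 arms), 1 library stood off from the rest: its distance to the closest value, as a share of the group's range, exceeded Dixon's 95% critical value for 4 samples. Chance flags about 1 group in 20, that is, 2 of 40. miR-99b-5p was at 21514 normalized CPM in IL-1β replicate 4 against 16786 to 17048 in the other IL-1β libraries (gap 0.944 of the range). miR-99a-5p was at 1513 in the same library against 935 to 1028 (gap 0.839). The 5p share of miR-10a was 99.8% in IL-1β replicate 1 against 100% in the other 3 (gap 1.0), which came from 1 count of miR-10a-3p. The levels of miR-10a-5p and miR-10b-5p in IL-1β replicate 4 did not reach this limit.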

How the results depend on the processing

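Of the 8 tested members 0 were called under each of 16 alternatives, DESeq2 included. The limit of an absolute log2 fold change over 1 was applied to the main fit and could add no call. Over 118 pairs of a member and an alternative, 116 kept the direction of the log2 fold change. Both exceptions were miR-196a-2-3p, at 0.0350 with the replicate block and -0.49 to 0.37 with a library left out. DESeq2 gave no adjusted p for miR-10b-3p and miR-196a-2-3p, and a mean of at least 10 counts removed both. Over all miRNAs 11 were called, 18 with 1 surrogate variable, 0 at an absolute log2 fold change over 1, and 6 to 19 with a library left out (7 without vehicle replicate 2, 6 without vehicle replicate 4, 7 without IL-1β replicate 3, 19 without IL-1β replicate 4). Whether the replicate numbers pair the samples was not settled, since weak correlations cannot exclude a shared isolation. Deviations of same-numbered libraries correlated at 0.17, -0.34, 0.10 and -0.18 across 195 miRNAs. Of 4 vehicle libraries, 2 correlated best with their own number. The replicate block gave 19 calls.

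Of the relatives of miR-10, miR-99b-5p was at -0.0197 with library totals only and -0.00638 without a filter. With a library left out it ranged from -0.0814 to 0.0405, miR-99a-5p from -0.0682 to 0.176, miR-100-5p from -0.0529 to 0.199 and miR-99b-3p from -0.0669 to 0.191. As a log2 ratio of counts plus 1, the 5p share gave 0.0280 for miR-10b and -0.0668 for miR-196b, opposite in sign to the difference in percent. With a library left out, the difference in percentage points ranged from -0.281 to 0.0376 for the miR-10 pair, and for the 5p share from -0.0312 to 0.0606 for miR-10a, -0.0118 to 0.00615 for miR-10b, -0.104 to 0.0982 for miR-196a, 0.0671 to 0.196 for miR-196b and -2.02 to -0.535 for miR-615. The log2 fold change of miR-10b-3p ranged from 0.0826 to 1.03. Leaving out 1 library allows no exact p below 0.0571.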
